A study of Mus musculus with 2 samples.

Results

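The replication-dependent histone genes are those whose symbols begin with Hist1h, Hist2h, Hist3h or Hist4h, and every peak annotated with such a symbol was taken from a list of Sap130 binding sites in embryonic mouse brain. They gave 75 of the 16231 peaks and 49 gene labels, out of 12656 peaks that carried a gene label. Sites were mapped by ChIP-seq, the sequencing of DNA pulled down from fixed chromatin with an antibody to the protein bound there. Brain of wild-type B6 embryos at stage E13.5 gave 1 library precipitated with 2 µg of rabbit antibody against Sap130, and brain of the same genotype and stage gave 1 library of input DNA. The sources used here do not give the number or sex of the embryos, and whole brain mixes dividing progenitors with postmitotic neurons. With 1 library of each kind and no read totals, the depth is unknown and every value below rests on 1 peak list without replicates.

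Replication-dependent histone genes encode the linker histone H1 and the core histones H2A, H2B, H3 and H4 that package newly copied DNA. They lie in clusters of many near-identical, mostly intronless genes, are transcribed in S phase at the histone locus body organised by Npat, and give messages that end in a stem-loop instead of a poly(A) tail. H2A and H2B genes often stand head to head and share the DNA between their starts. Sap130 belongs to the Sin3 corepressor, which carries histone deacetylases.

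The DNA just before these genes' starts shows which promoter words the family shares and how alike its copies are. The following stretches are the 150 bases before the RefSeq start (GRCm38.p6), written in the gene's direction, with 3 words in capitals wherever either strand holds them: TATAAA (the TATA box word), the word CCAAT (which reads ATTGG from the opposite strand) and the octamer word ATTTGCAT. The first pair belongs to the earliest histone genes in the peak list, Hist1h3g (chr13:23535268-23535417, plus strand) and Hist1h3c (chr13:23745522-23745671, minus strand), whose stretches lie wholly inside a Sap130 peak.
Hist1h3g: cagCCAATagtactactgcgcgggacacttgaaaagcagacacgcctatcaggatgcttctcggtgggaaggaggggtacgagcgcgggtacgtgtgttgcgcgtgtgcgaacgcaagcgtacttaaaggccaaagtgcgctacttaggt
Hist1h3c: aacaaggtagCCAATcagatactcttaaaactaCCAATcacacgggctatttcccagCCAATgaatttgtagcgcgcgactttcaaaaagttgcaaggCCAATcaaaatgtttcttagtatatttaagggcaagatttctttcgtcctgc
The next 3 are H2B promoters. A peak covers part of the stretch of Hist1h2bg (chr13:23571250-23571399, plus strand) and of Hist1h2bk (chr13:22035671-22035820, plus strand). Both carry ATTTGCAT, the octamer word bound by Pou2f1, outside the covered part. The testis gene Hist1h2ba (chr13:23934157-23934306, minus strand) had no peak nearby, and its own ATTTGCAT lies just before the printed stretch.
Hist1h2bg: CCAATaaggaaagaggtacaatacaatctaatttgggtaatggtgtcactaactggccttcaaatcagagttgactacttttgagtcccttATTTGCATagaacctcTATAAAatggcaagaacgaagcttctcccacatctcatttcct
Hist1h2bk: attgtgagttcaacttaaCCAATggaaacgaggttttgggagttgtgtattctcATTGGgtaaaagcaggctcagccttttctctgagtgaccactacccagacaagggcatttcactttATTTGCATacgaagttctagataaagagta
Hist1h2ba: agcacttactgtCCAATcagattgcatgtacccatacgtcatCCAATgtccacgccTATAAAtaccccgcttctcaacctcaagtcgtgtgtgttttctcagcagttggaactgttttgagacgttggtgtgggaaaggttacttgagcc
The last pair are the copies Hist1h2bq (chr13:21810200-21810349, minus strand) and Hist1h2br (chr13:21833593-21833742, plus strand), whose promoters were identical over 250 bases and which had no peak.
Hist1h2bq: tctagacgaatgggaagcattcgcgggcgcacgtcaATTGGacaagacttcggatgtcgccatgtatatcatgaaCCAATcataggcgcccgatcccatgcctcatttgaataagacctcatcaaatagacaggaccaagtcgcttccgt
Hist1h2br: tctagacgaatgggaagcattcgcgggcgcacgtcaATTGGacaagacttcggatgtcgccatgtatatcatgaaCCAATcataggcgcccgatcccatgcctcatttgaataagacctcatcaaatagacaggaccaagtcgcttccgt

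Sap130 peaks were found at most replication-dependent histone genes, but many of these peaks were narrow and late in the list. RefSeq holds 70 genes of the family, of which 67 code for protein and 3 are pseudogenes. A promoter peak, meaning a peak whose centre lies within 1 kb of the labelled start, stood at 49 of the 67 (73.1%, Clopper-Pearson 95% interval 60.9 to 83.2), beside 49.2% of the 20953 protein-coding genes with a curated transcript. The 49 genes are 48 of the labels, without the pseudogene Hist3h2bb-ps, and Hist2h2aa1, at which a peak carried the label of its copy Hist2h2aa2. Intervals cover counting error only, and neighbouring genes share peaks, so that the genes are not independent.

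Counting any overlap of the gene or 1 kb around it, 59 of 67 histone genes (88.1%) had a peak, beside 57.3% of protein-coding genes. By contrast, 15 of 67 (22.4%, interval 13.1 to 34.2) had a label among the first 8115 peaks, beside 33% of protein-coding genes. Among the widest 8115 peaks, 28 of 67 (41.8%, interval 29.8 to 54.5) had one, beside 31.6%. A peak centred within 1 kb of either end stood at 57 of 67 (85.1%), beside 49.8%, and a label within 500 bp at 39 of 67 (58.2%), beside 44%. The family's share was thus above the background for any peak. It was lower for early peaks and higher for wide peaks, but both of those intervals include the background share.

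The place in the list is the authors' running number, with 1 as the first peak. The sources used here do not say which quantity orders the list, so a place is given as a place and not as a strength. The 75 histone peaks had a median place of 11582 (range 68 to 16208), beside 6843.5 for all labelled peaks. Their median width was 585 bp (range 217 to 1887 bp), beside 761 bp for all labelled peaks. Of the 75, 15 (20%) were in the first 8115 peaks, beside 58.8% of labelled peaks. Taking the earliest peak of each gene, the median width was 780 bp for histone genes and 840 bp for all labelled genes, and the median place 10429.5 and 5924. Histone peaks thus lay later than labelled peaks as a whole on both counts, while most of the gap in width was absent when 1 peak per gene was taken.

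**Figure D1:**
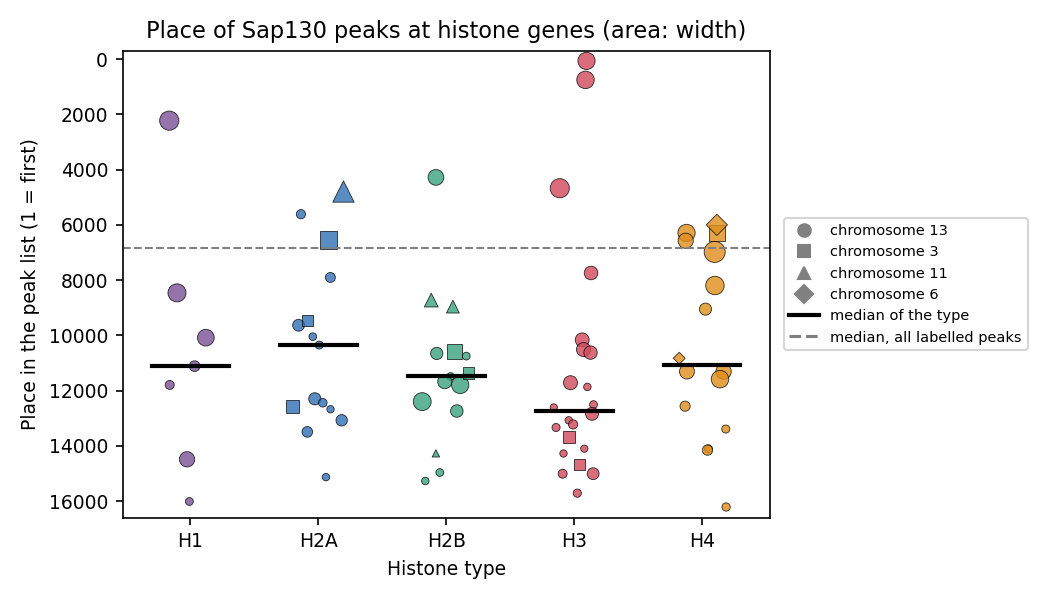
Place in the peak list (vertical axis, 1 at the top) of the 75 Sap130 peaks at histone genes, by histone type. Marker area is proportional to peak width, marker shape gives the chromosome, black bars are the medians of each type, and the dashed line is the median of all labelled peaks (6843.5); all 5 medians lie below that line, between 10349 for H2A and 12721 for H3.

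H3 genes, which encode the core histone whose tail carries many of the best known acetylation and methylation sites, held both the earliest histone peak and the latest median place of the 5 types. Hist1h3g (chr13:23535418-23535909, plus strand, gene H3c8) had a peak of 1227 bp at chr13:23534373-23535600, place 68, centred 431.5 bp before the start. Hist1h3c (H3c3) had a peak of 1266 bp at place 754, centred 419 bp before the start. Hist1h3b (H3c2) had a peak of 1523 bp at place 4674 and a second of 280 bp at place 15708, the latest of all H3 peaks. The 22 H3 peaks had a median place of 12721 and a median width of 538 bp.

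Of 12 H3 genes, 11 carried a label (91.7%, interval 61.5 to 99.8), and 8 of these 11 carried 2 or more peaks. Hist1h3h, Hist1h3i and Hist1h3d carried 3 peaks each, the only histone genes with that many. Second peaks stood at Hist1h3g (354 bp, place 13220), Hist1h3c (817 bp, place 11712), Hist1h3b, Hist1h3f (256 bp, place 12503) and Hist1h3e (228 bp, place 13072). All 8 lie on chromosome 13. The other 3 labelled H3 genes had 1 labelled peak each: Hist1h3a upstream of its start (225 bp, place 14272), and the near copies Hist2h3c1 (494 bp, place 14661) and Hist2h3c2 (592 bp, place 13662) at or past their ends.

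H4 genes, which encode the partner of H3 in the central tetramer of the nucleosome, had wide peaks that covered the gene. The 16 H4 peaks had a median width of 931.5 bp and a median place of 11066.5. Of 13 H4 genes, 11 carried a label (84.6%, interval 54.6 to 98.1). The earliest was Hist4h4, the lone histone gene on chromosome 6 (chr6:136803993-136804431), with a peak of 940 bp at place 6000 and a second of 296 bp at place 10826.

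Hist1h4h held the widest and the latest H4 peak, with a peak of 1833 bp over the gene at place 6979 and a peak of 284 bp upstream at place 16208, the latest histone peak in the list. Hist1h4j (1236 bp, place 6292, and 271 bp, place 13388), Hist1h4a (955 bp, place 6574, and 429 bp, place 12561) and Hist1h4f (261 bp, place 14099, and 441 bp, place 14150) were the other H4 genes with a second peak. In Hist1h4h, Hist1h4j and Hist1h4a a wide peak thus stood beside a much later one, while both peaks of Hist1h4f were late.

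H1 genes, which encode the linker histone that binds the DNA between nucleosomes, had a median width of 974 bp over 7 peaks, with a median place of 11112. Of 6 H1 genes, 5 carried a label. Hist1h1c (gene H1f2) had the earliest, a peak of 1528 bp at place 2229 that began just before the start and ran past the gene. Hist1h1a had the latest, 258 bp at place 16008, besides a peak of 477 bp at place 11112. Hist1h1d had peaks of 1158 bp at place 10081 and 337 bp at place 11791.

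The H1 gene without a label was Hist1h1t, which encodes the linker histone of male germ cells. Its nearest peak lay 939 bp away and was labelled Hist1h4c.

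H2A and H2B genes, whose products pair as dimers, had labels least often. Labels stood at 11 of 18 H2A genes and at 11 of 18 H2B genes (61.1% each, interval 35.7 to 82.7), beside the 49.2% of protein-coding genes. The H2B count includes Hist1h2be, whose labelled peak (623 bp, place 10651) lay at an annotated start far from its coding stretch. That peak covered none of its coding bases. The intervals of all 5 types overlap, and no test between types was made. Median widths were 468 bp for H2A and 647 bp for H2B, over 15 peaks each.

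Among H2A genes the earliest peak was that of Hist3h2a on chromosome 11, which was also the widest histone peak (1887 bp, place 4775), and the latest was that of Hist1h2ag (231 bp, place 15126). Hist1h2ah (356 bp, place 5614, and 585 bp, place 9632), Hist1h2an (243 bp, place 10045, and 541 bp, place 13071), Hist1h2ae (263 bp, place 10349, and 615 bp, place 12294) and Hist1h2ak (225 bp, place 12671, and 468 bp, place 13490) had 2 peaks. In each of these 4 genes a short peak at or near the start came before a longer one around the gene's end.

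Among H2B genes the earliest peak was that of Hist1h2bn (1028 bp, place 4283), centred 813 bp from the start and past the gene's end. The latest was the second peak of Hist1h2bm (232 bp, place 15267, besides 244 bp at place 11484), and both of its peaks lay upstream. Both overlapped the H2A pseudogene Hist1h2aj, which had no label of its own. Hist1h2bg (250 bp, place 10748, and 1233 bp, place 11792) and Hist3h2ba (686 bp, place 8957, and 226 bp, place 14266) also had 2 peaks. The narrowest histone peaks were of H3 and H2A genes: 217 bp at Hist1h3d (place 12605) and at Hist1h3i (place 14098), and 225 bp at Hist1h2ak and Hist1h3a.

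Several peaks per gene were common in the family. Of the 49 labelled protein-coding histone genes, 22 (44.9%, interval 30.7 to 59.8) carried 2 or more labelled peaks, beside 16.3% of all labelled protein-coding genes. Another peak lay within 500 bp of 55 of the 75 histone peaks (73.3%), beside 39.2% of nuclear peaks. The 34 gaps of at most 500 bp beside a histone peak had a median of 133.5 bp (smallest 54 bp). Part of a histone gene lay in 19 of these gaps, part of a labelled gene's coding stretch in 15, and a start in 3. A start is a single base and a gene a much longer stretch, so these counts cannot be set against each other. No share for gaps beside other genes is given. Of the 34 gaps, 23 lay between peaks with the same label. The centre of 22 of the 75 peaks (29.3%, interval 19.4 to 41.0) lay upstream of the start, beside 22.7% of all labelled peaks, and H3 genes held 9 of these 22.

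The position of the interruptions differed by histone type. Coverage was followed base by base around the start of 48 labelled histone genes, leaving out Hist1h2be, whose annotated start lies far from its coding stretch. The start came from RefSeq, or from the deposited gene model in Hist2h2be, Hist2h4, Hist1h3f, Hist1h2bc and Hist1h3a. At the start itself, 62.5% of the histone genes were covered by a peak, beside 79.4% of 8293 other labelled protein-coding genes and 74.3% of the 171 of these with 1 exon. At 250 bp into the gene, 50% of histone genes were covered, beside 92.5% of the other genes and 86.5% of those with 1 exon. At 500 bp, where most of these short genes have ended, coverage was 81.3% for histone genes, beside 70.3% and 74.9%. Histone genes as a set were thus covered less than other genes at 250 bp and more at 500 bp. The ends of other genes, most of which lie farther from the start, were not measured. The low coverage at 250 bp came from H2A, H2B and H3 genes, as the shares by type below show.

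At 250 bp into the gene, 100% of 5 H1 genes, 90.9% of 11 H4 genes, 45.5% of 11 H2A genes, 30% of 10 H2B genes and 9.09% of 11 H3 genes were covered. Peaks covered the whole coding stretch in 10 of 11 H4 genes. They did so in 0 of 11 H3 genes, 2 of 11 H2A genes, 2 of 10 H2B genes and 2 of 5 H1 genes. On average 92.6% of the coding bases were covered in H4 genes, 90.6% in H1, 52.4% in H2A, 48.0% in H3 and 46.3% in H2B. The H4 exception was Hist1h4a, with 18.6% covered. Hist2h2aa1, Hist2h2aa2 and Hist1h2bm had none of their coding bases in a peak although each was labelled.

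**Figure D2:**
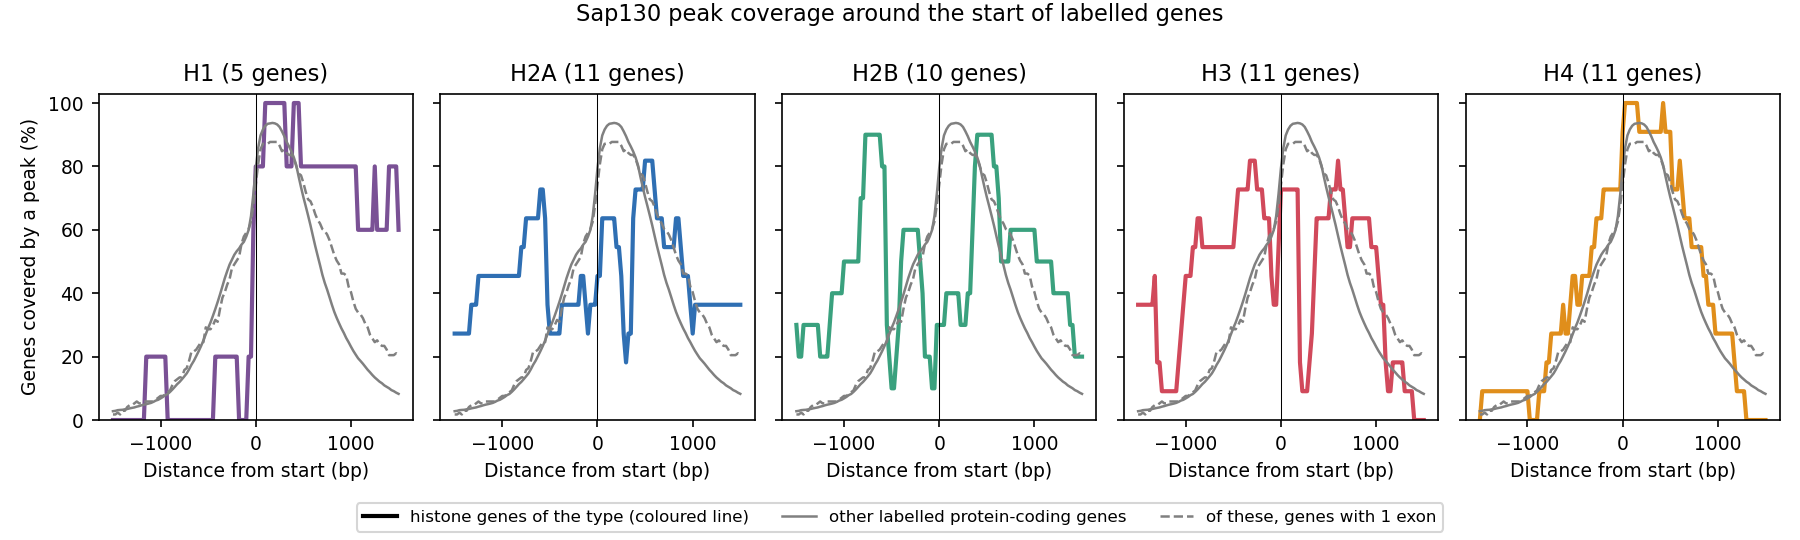
Share of labelled genes covered by any Sap130 peak (vertical axis, percent) against distance from the gene's start in its direction (bp), for each histone type (coloured), for other labelled protein-coding genes (grey) and for those with 1 exon (dashed). H4 follows the grey curves, with 90.9% covered at 250 bp, while H3 falls to 9.09% there and H2B is low at its start, with 30% covered.

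The edge of coverage inside H3 genes fell at nearly the same base in copy after copy. This was looked at after the profiles had been seen. In the 8 labelled H3 genes whose start lay in a peak, coverage ended 182 to 277 bp into the gene (median 197.5 bp). It ended at 182 bp in Hist1h3g, 190 bp in Hist1h3b, 195 bp in Hist1h3e, 196 bp in Hist1h3h, 199 bp in both Hist1h3d and Hist1h3i, 215 bp in Hist1h3c and 277 bp in Hist1h3f. Hist1h3f, whose start came from the deposited model, stood farthest from the rest.

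Coverage resumed 282 to 366 bp into the gene in 6 of the 8 H3 genes and at 746 bp in Hist1h3b, and did not resume within 1.5 kb in Hist1h3e. An edge between 150 and 250 bp was found in 7 of 8 H3 genes (87.5%), in 2 of 4 H2A genes (50%), in 1 of 3 H2B genes (33.3%), in 1 of 10 H4 genes (Hist1h4a, at 150 bp), in 0 of 4 H1 genes and in 3.56% of 6213 other labelled protein-coding genes, counting genes whose start was covered and whose coverage ended within 1.5 kb. The window of 150 to 250 bp was chosen after the profiles had been seen, so the H3 share describes these genes only. The median edge was 250 bp in H2A genes, 671 bp in H4 genes and 628 bp in other genes. The sources used here do not say how reads matching several near-identical copies were handled, and the part of this in the edges was not tested.

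**Figure D3:**
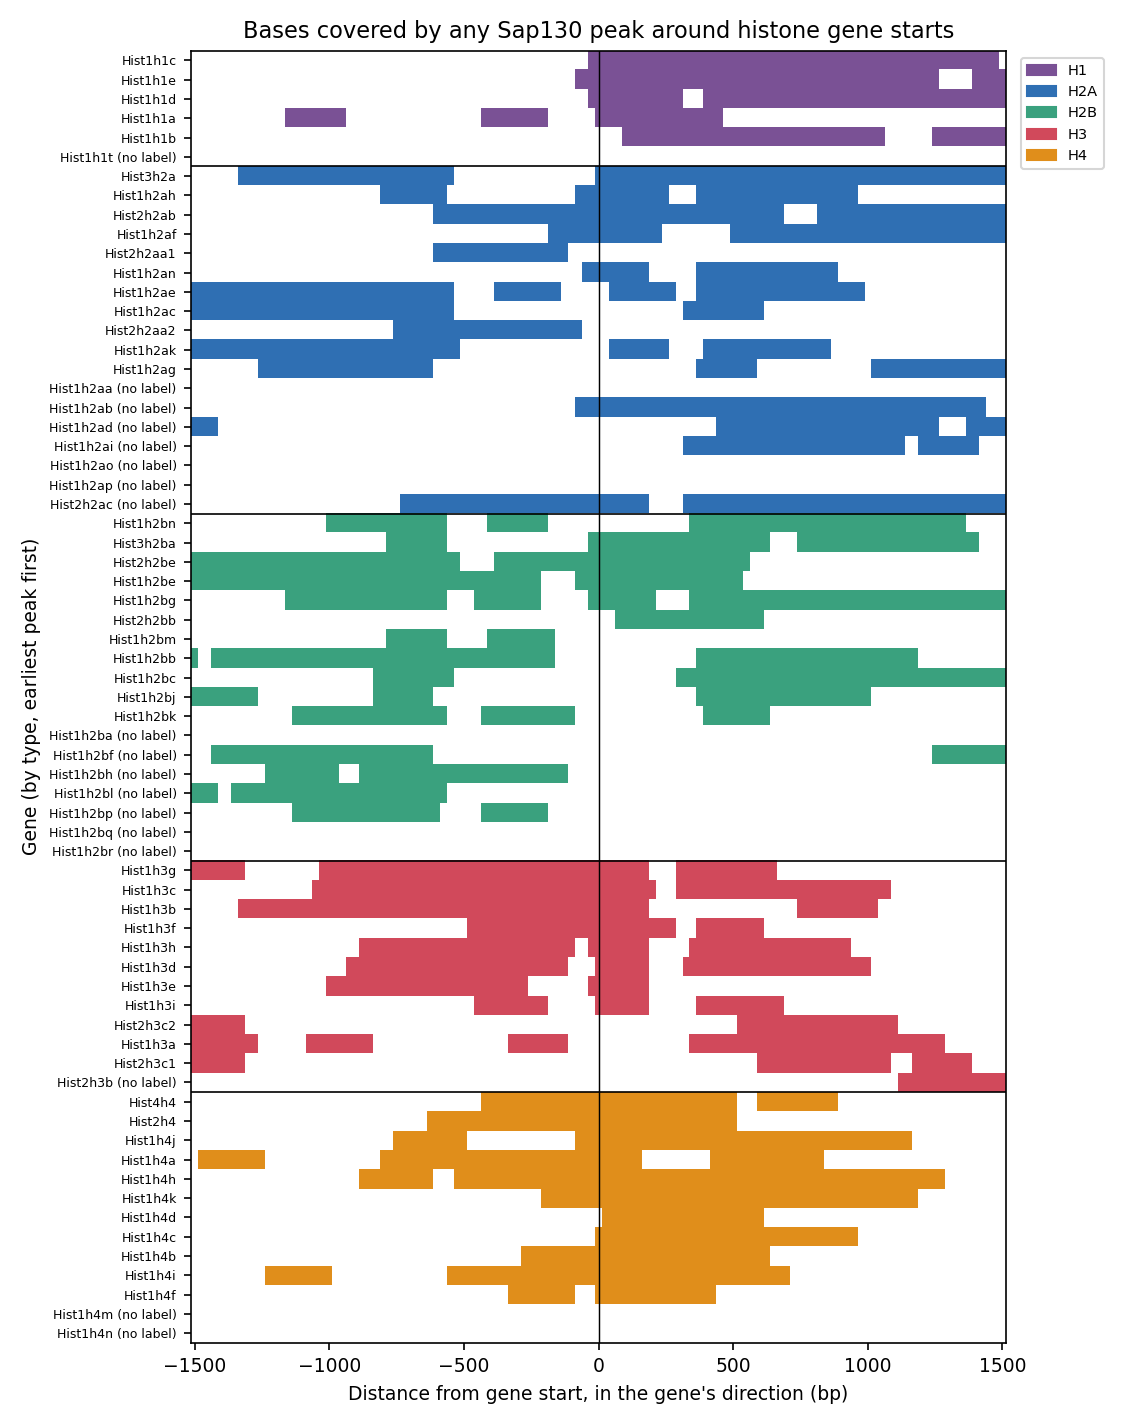
Bases covered by any Sap130 peak (coloured) around the start of each histone gene with a known start, with 1 gene per row, grouped by type and ordered by the place of its earliest peak, against distance from the start in the gene's direction (bp). In H3 rows the colour stops 182 to 215 bp into the gene in 7 copies, most H4 rows are filled across the gene, and 9 rows (such as Hist1h2bq and Hist1h4m) are empty.

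Peak coverage of the DNA shared by head-to-head H2A and H2B genes ranged from none to all of it. Starts on opposite strands lay within 1 kb of each other in 14 pairs, of which 13 joined an H2A to an H2B gene. In 8 of the 13, no base between the starts was in a peak. This held for Hist1h2ak with Hist1h2bn (163 bp between the starts), Hist1h2ag with Hist1h2bj (248 bp) and Hist1h2ac with Hist1h2bc (239 bp), in which both genes carried a label from peaks outside that stretch. The other 5 of these 8 pairs carried no label. They are Hist1h2bl with Hist1h2ai, Hist1h2bf with Hist1h2ad, Hist1h2bq with Hist1h2ao, Hist1h2ap with Hist1h2br, and Hist1h2ba with Hist1h2aa. The last 3 named had no peak within 1 kb at all, so that the lack of coverage there is not particular to the shared DNA. No share for other head-to-head genes is given beside these counts.

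Coverage of the shared DNA was 100% for Hist2h2ac with Hist2h2be on chromosome 3 and 52.0% for Hist1h2ah with Hist1h2bk. It was 21.3% for Hist1h2an with Hist1h2bp, 20.7% for Hist1h2ae with Hist1h2bg and 3.49% for the pseudogene Hist3h2bb-ps with Hist3h2a. The pair of an H2B and an H3 gene, Hist1h2bh with Hist1h3f, had 80.9% of 607 bp covered. Among labelled genes, the start lay inside a peak in 10 of 11 H4, 8 of 11 H3 and 4 of 5 H1 genes. It did so in 5 of 11 H2A and 4 of 11 H2B genes, with Hist1h2be among the latter. In all this was 31 of 49 (63.3%), beside 81% of labelled protein-coding genes with a promoter entry. The 81% counts a gene if any of its listed starts lay in a peak, while each histone gene had a single start. The measures are thus not alike, and the background share is the more generous.

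The large cluster on chromosome 13 falls into 3 blocks and a distant testis pair. Labels stood at 38 of its 54 protein-coding genes (70.4%, interval 56.4 to 82.0), and it held 61 of the 75 histone peaks. In the first block (chr13:21715711-21837530, 121.82 kb) 9 of 18 genes carried a label, and peaks covered 7.99% of the DNA. In the second (chr13:22035122-22043658, 8.537 kb) all 5 genes carried a label, and 27.6% was covered. In the third (chr13:23531044-23764412, 233.369 kb) 24 of 29 carried a label, and 11.9% was covered. The blocks held 18, 6 and 40 peaks, of which 17, 6 and 37 had a histone label and the remaining 4 had none.

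The cluster on chromosome 3 (chr3:96219885-96270192, 50.308 kb) had fewer labelled peaks per labelled gene. Labels stood at 8 of its 10 genes (80%, interval 44.4 to 97.5), and 11.3% of the DNA was covered. It held 17.9 peaks per 100 kb, beside 14.8 in the first, 70.3 in the second and 17.1 in the third block of chromosome 13. None of its 8 labelled genes had a second labelled peak (0 of 8, which allows a share of up to 37.5%). Peaks without a label were not counted, and Hist2h3c1 had such a peak nearby (239 bp, place 16158). On chromosome 13, 20 of the 38 labelled genes had a second labelled peak (52.6%, interval 35.8 to 69.0). The intervals meet, and no test between clusters was made. Median widths were 541 bp on chromosome 13 and 650 bp on chromosome 3, with median places of 11791 and 10977.

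On chromosome 3 the earliest peaks were those of Hist2h4 (1133 bp, place 6279) and Hist2h2ab (1308 bp, place 6534), which covered both genes whole. The label Hist2h2aa2 stood on peaks at both copies of a mirrored H2A pair: 708 bp at place 12577 at Hist2h2aa2 itself, and 483 bp at place 9473 at the neighbouring Hist2h2aa1, where it was counted. Both lie before the start. Besides Hist3h2a, the labels of chromosome 11 were Hist3h2ba and the pseudogene Hist3h2bb-ps (792 bp, place 8721).

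**Figure D4:**
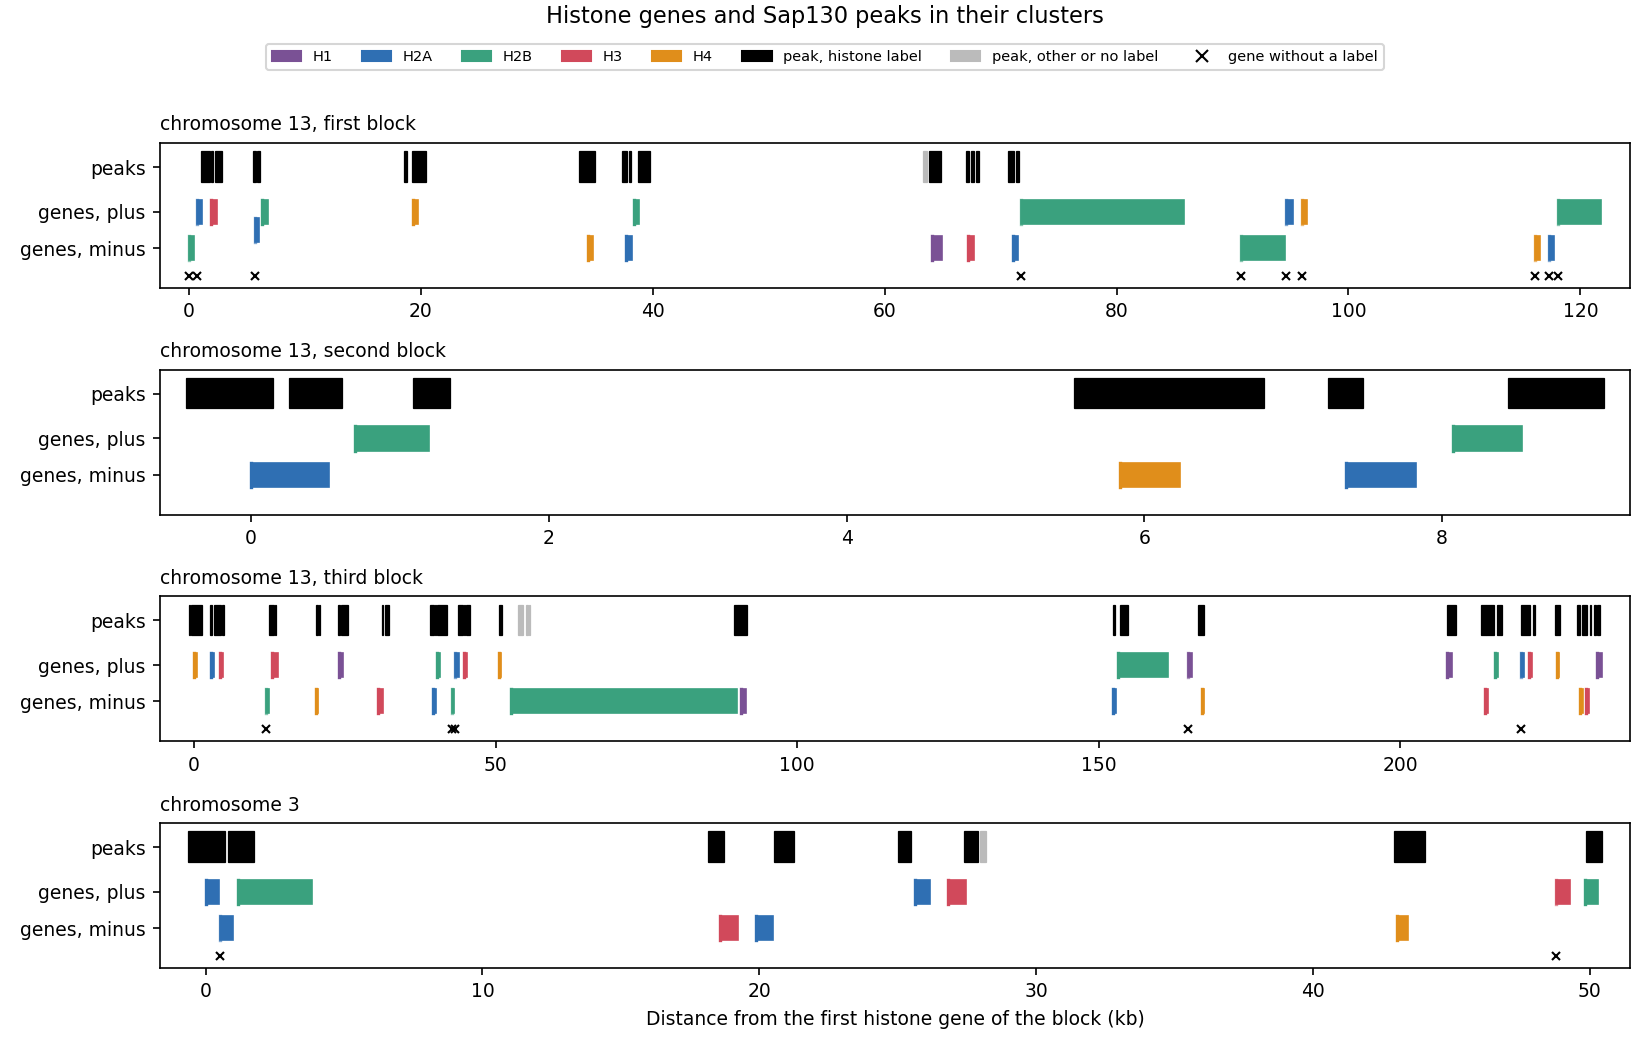
Histone genes (coloured by type, by strand) and Sap130 peaks (black with a histone label, grey without) in the 3 blocks of chromosome 13 and the cluster of chromosome 3, against distance from the first histone gene (kb); a gene drawn between the strand rows is a pseudogene, and crosses mark genes without a label. In the first block the peaks stop at Hist1h2an, and the 6 histone genes at its end carry none, while the second block has a label at each of its 5 genes.

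A label was missing at 18 protein-coding histone genes, of which 8 had no peak within 1 kb. Of these 8, Hist1h2bq, Hist1h2ao, Hist1h4m, Hist1h4n, Hist1h2ap and Hist1h2br form the end of the first block, and their nearest peaks lay 19113 to 46444 bp away. The testis genes Hist1h2ba and Hist1h2aa, which encode the H2B and H2A variants of male germ cells, stand apart and had their nearest peaks 169589 and 170301 bp away.

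The end of the first block holds the most alike promoters among the 62 family members with a promoter entry. Over the 250 bases before the start, Hist1h2bq and Hist1h2br were 100% identical and Hist1h4m and Hist1h4n 99.6% identical. The next pairs, both labelled, were Hist2h3c1 and Hist2h3c2 (94%) and Hist1h4j and Hist1h4k (90.4%). The sources used here do not say whether reads from identical copies were kept, and the part of this in the lack of peaks was not tested. The other genes of these 6, Hist1h2ao and Hist1h2ap, had closest promoters 84% (Hist1h2ad) and 67.2% (Hist1h2ag) identical, and were 60% identical to each other. CCAAT words lay at -97 and -58 bp from the start in Hist1h2ao, and at -197, -158 and -100 bp in Hist1h2ap. The measure depends on where the start is annotated. Hist1h2ao starts with 167 bp between it and Hist1h2bq, and Hist1h2ap with 267 bp between it and Hist1h2br. As the promoters of Hist1h2bq and Hist1h2br are identical, the DNA before Hist1h2ao and Hist1h2ap is largely the same, with starts annotated at different points. The CCAAT words at -97 and -58 bp in Hist1h2ao match those at -197 and -158 bp in Hist1h2ap. The value of 60% thus understates how alike these genes are.

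At the other 10 genes without a label, a peak nearby had been given to a neighbour. The start of Hist1h2ab lay inside a peak labelled Hist1h3b, and that of Hist2h2ac inside a peak labelled Hist2h2be. Peaks overlapped the bodies of Hist1h2ai and Hist1h2ad and were labelled Hist1h3h and Hist1h3d. For Hist1h2bh (117 bp), Hist1h2bp (184 bp), Hist1h2bl (551 bp), Hist2h3b (608 bp) and Hist1h2bf (611 bp) the nearest peak lay outside the gene at the distance given. Hist1h1t, described with the H1 genes, completes the 10.

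The promoter words of histone genes were shared by genes with and without a label. In the 250 bases before the start, CCAAT, the word bound by NF-Y, stood in 51 of 62 histone promoters (82.3%), beside 36.2% of 17430 other protein-coding promoters. TATAAA stood in 29 (46.8%), beside 12.3%, and ATTTGCAT in 13 (21.0%), beside 1.54%. At least 1 of the 4 E2F words TTTCCCGC, TTTGGCGC, TTTCGCGC and TTTGCCGC stood in 8 (12.9%), beside 2.37%. All were searched on both strands, and a match is a match of letters only. A word between head-to-head starts can count for both genes.

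CCAAT and ATTTGCAT were spread unevenly over the histone types, and TATAAA was found in all of them. CCAAT stood in all 6 H1, 18 H2A and 16 H2B promoters and in 8 of 10 H3 promoters, but in 3 of 12 H4 promoters. ATTTGCAT stood in 7 of 18 H2A and 6 of 16 H2B promoters and in no other type. Head-to-head genes share the DNA between their starts, so the same word can be counted in an H2A and in an H2B promoter. This held for ATTTGCAT in Hist1h2ah with Hist1h2bk, Hist1h2ae with Hist1h2bg and Hist1h2aa with Hist1h2ba. The counts are thus of promoters and not of separate sites. TATAAA stood in 4 of 6 H1, 7 of 18 H2A, 8 of 16 H2B, 4 of 10 H3 and 6 of 12 H4 promoters. Between the 44 promoters with a label and the 18 without, the shares were 79.5% and 88.9% for CCAAT, 47.7% and 44.4% for TATAAA and 20.5% and 22.2% for ATTTGCAT. The median GC content was 44.8% for histone promoters, beside 55.2% for other promoters, with medians of 9.5 and 10 CpG.

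Listed genes of the histone supply pathway (transcription and cell cycle factors, message processing factors and histone chaperones) carried labels more often than protein-coding genes as a whole. This list, like that of replication-independent histone genes below, was chosen with earlier results of these data known. Its share therefore describes the listed genes only. Of a list of 36 such genes, 35 were matched and 33 (94.3%, interval 80.8 to 99.3) carried a label, beside 49.2% of protein-coding genes, and their earliest peaks had a median place of 3506, beside 5924 for all labelled genes. Cyclin E2 (Ccne2), which drives entry into S phase, had a peak of 2104 bp at place 14, and Pou2f1, the octamer-binding factor, carried 4 labels with the earliest at place 39. Nasp, a chaperone for H1 and H3, had a peak of 2090 bp at place 331. Slbp, which binds the stem-loop of histone messages, stood at place 3506 (1198 bp) and Npat at place 7671 (893 bp). The 2 without a label were Zfp473 and Ncbp2, each with a peak within 1 kb of the gene.

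Histone genes listed as replication-independent were chosen for having introns or poly(A) messages. They carried a label in 10 of 16 cases (62.5%, interval 35.4 to 84.8), beside 49.2% of protein-coding genes. The earliest peak of each labelled gene had a median place of 10429.5 for replication-dependent genes and of 2303.5 for these replication-independent ones. H3f3b, which encodes the variant H3.3, stood at place 532 (1145 bp), H2afx at place 709 (2185 bp) and H1fx at place 787 (1865 bp). H2afz had 3 peaks. Those without a label were H1f0, H1fnt, H1foo, H3f3c, H2bfm and H2afb1, of which H1f0 had a peak within 1 kb.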

How the data were processed

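The authors compared 1 Sap130 ChIP library and 1 input library of wild-type E13.5 brain and deposited 1 peak table. Per the submitters' processing notes, Bowtie 1.1.2 and MACS2 2.1.0.20140616 were used with GRCm38 (mm10). The sources used here give neither alignment settings nor peak thresholds. The deposited values are a running number and peak bounds, with a gene model for labelled peaks, and no height, fold, p-value or read total. Labels were matched to RefSeq genes of GRCm38.p6 by accession (12520) or symbol (134), and 2 stayed unmatched. Centre to start distances reached 999.5 bp at most. Gene starts, strands and promoters came from RefSeq tables, which held promoters of 62 of the 70 family members, and starts of the other labelled members from the deposited models. Promoter identity was taken from global alignments without end gap cost.

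Members and gene lists were chosen with earlier results of these data known. The text names the 4 earliest, 4 latest, 3 widest and 3 narrowest peaks, genes with 2 or more peaks, genes without a label, and the earliest and latest of each type. No test was run, since there is 1 library of each kind. Shares carry exact Clopper-Pearson 95% intervals, and a share of 0 a limit of 3 counts. The scripts' distances, coverage and word counts were tested on simulated data. Protein identity was not analysed here. Python 3.11.15, pandas 2.3.3, scipy 1.17.1, matplotlib 3.10.9 and Biopython 1.88 were used.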

Additional observations from a re-analysis of the deposited data

How the results depend on the processing

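The number of histone genes with a promoter peak, 49, stayed within 1.5 times under a window of 500 bp (39), any overlap within 1 kb (59), a centre within 1 kb of either end (57), pseudogenes counted as well (50) and, chosen after seeing the data, a start inside any peak (33). It was 15 with the first 8115 peaks and 28 with the widest 8115 peaks, both of which admit fewer peaks by construction. Peaks on chromosome 13 numbered 61 by label, 94 when all peaks between the outermost histone genes were counted, a stretch of 2219 kb that also holds other genes, and 64 within the blocks, a count chosen after seeing the data. The other settings for width, place, chromosome 3 and promoter words moved no value beyond 1.5 times. Without read totals, a missing peak cannot be told apart from a peak too weak for the depth. No paired analysis was possible because the peaks rest on 1 ChIP library.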

Other observations

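Peaks without a gene label, 6 in all, lay at histone genes of chromosomes 3, 11 and 13. Of these, 3, of 825 bp (place 11825), 372 bp (place 13391) and 229 bp (place 15661), stood around the coding stretch of Hist1h2be, whose annotated start lies at the far end of a long model. The others were a peak of 239 bp (place 16158) near Hist2h3c1, 672 bp (place 10952) near Hist3h2ba and 401 bp (place 11136) near Hist1h1b. All 6 lie later than the median place of labelled peaks, 6843.5.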
